A study of Mus musculus with 15 samples.

Results

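The regions described here are short stretches listed as accessible chromatin that lie close together in 6DT1 cells, a mouse mammary cancer cell line grown as a monolayer. A region of the knockdown table was a member if it was shorter than 1000 bp, shared at least 1 base with a region of the overexpression table and had 4 or more other regions of the knockdown table starting within 10000 bp of its own start on the same chromosome. Regions of chrM, chrX and chrY were left out. The rule used positions only and no count, although peak calling on read signal had decided which regions were listed. It found 9422 members among the 44598 regions of the knockdown table, or 21.1%. ATAC-seq libraries of 5 groups were compared, 3 of each: the knockdown lines KD4 and KD6, in which Smarcd1 is targeted by an shRNA, their scramble control Scr, the Smarcd1 overexpression line OE and its empty vector control EV. All 5 are transduced lines of the same cells and were untreated apart from antibiotic selection, and Scr and EV have the labels' wildtype genotype. The paper's methods add puromycin to the culture of knockdown cells and blasticidin to that of overexpression cells. KD is used below for the mean of the KD4 and KD6 lines. Positions are given in mm39 as the files have them. Regions carry no gene names here, and neither Smarcd1 itself nor markers of mammary epithelium were looked up, because no annotation of that build was used.

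SMARCD1 is a subunit of the BAF (SWI/SNF) complexes, which use ATP to slide and evict nucleosomes and so help to keep promoters and enhancers open. In ATAC-seq a transposase cuts into open DNA and leaves sequencing adapters there, so the number of reads over a region rises with its accessibility. Accessible sites are not spread evenly along chromosomes, and several close together can belong to a promoter and its enhancers, to a broad regulatory domain or to a gene cluster. The labels of these libraries also carry a protocol for RNA extraction, so reads of another kind among the counts cannot be told apart from ATAC-seq reads here.

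The 9422 members made up 37.6% of the 25030 shared autosomal regions under 1000 bp. Another 12137 of those had 1 to 3 other starts within the window and 3471 had none, and these classes are called sparse and isolated here. Members whose neighbouring starts were at most 10000 bp apart were chained into 2389 runs. Of these, 1224 runs had 4 or more members and held 7095 members, or 75.3% of them, and 83 runs had 10 or more. In 402 runs there was a single member, with no other member starting within 10000 bp. Neighbouring members of a run were a median of 1214 bp apart from start to start, with 826 bases free between them. Another 2249 regions lay between members of a run, 2129 of them absent from the overexpression table. In length members were much like the others, with a median of 323 bp beside 325 bp in sparse and 313 bp in isolated regions. Chromosome 15 had the largest share of its regions among the members, 27.1%, and chromosome 3 the smallest, 17.9%.

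Crowding went with little difference in the typical level. Levels are given in CPM (a library's counts scaled to a common total, after TMM scaling over the 15 libraries) and are divided by length in kb where regions are compared with each other. The median level was 30.6 CPM per kb in members, 29.9 in sparse and 33.5 in isolated regions. On either side of the rule's limit the medians were 28.9 CPM per kb with 4 other starts (3028 regions) and 29.7 with 3 (3800 regions). The upper tails differed more. Above 100 CPM per kb were 13.5% of members, against 16.3% of sparse and 23.0% of isolated regions, and the 95th percentiles were 197.5, against 256.2 and 570.6 CPM per kb. Members of 1 run resembled each other in level. Of the variance of log2 CPM per kb over the 9020 members in runs of 2 or more, 62.8% lay between runs. With 1987 such runs, part of the variance lies between them even without likeness, and that part was not taken away. The highest member of a run of 4 or more was still a median of 4.03 times its lowest.

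**Figure D1:**
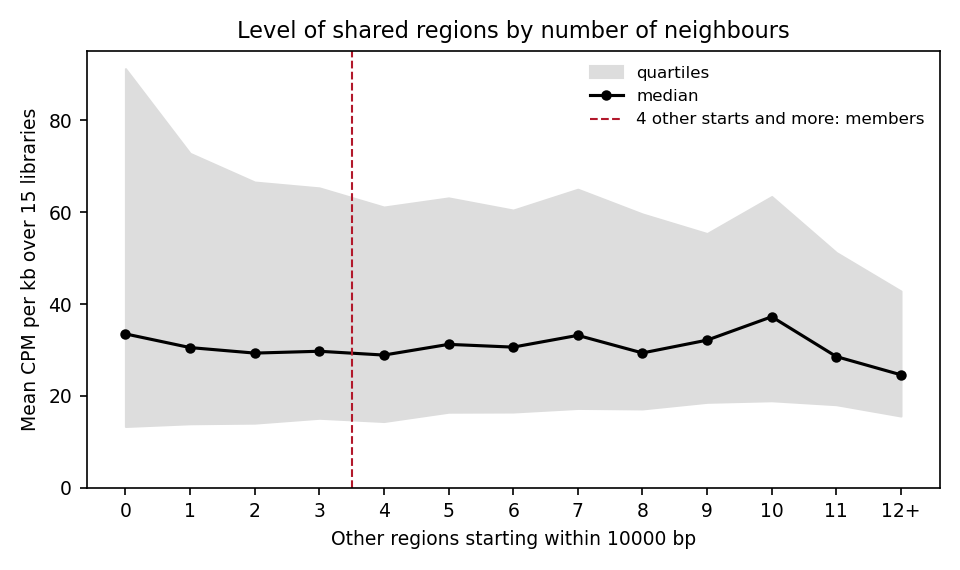
Mean CPM per kb over the 15 libraries (y axis) of shared autosomal regions under 1000 bp, by the number of other regions starting within 10000 bp (x axis, 12+ pools 12 and more). The line gives medians and the band the quartiles. The median stays between 24.6 and 37.2 CPM per kb while the upper quartile is 91.3 with no neighbour and 42.8 with 12 or more, and the dashed line marks where membership begins.

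Total counts ranged over the libraries between 16176521 and 23703741, and members held 20.7% to 23.7% of them. By group the share was 22.4% ± 0.72 in KD4, 22.5% ± 0.95 in KD6 and 23.1% ± 0.74 in Scr, and 22.5% ± 0.52 in OE and 21.5% ± 0.81 in EV (SD, n = 3 each). The KD mean was 0.584 percentage points below Scr and the OE mean 1.05 above EV, and in both pairs the libraries' values overlapped. Libraries of 1 group differed along a shared axis. After the group mean of each member was taken away, the first principal component held 30.3% of the remaining variance of log2 CPM in members, and 29.8% in sparse and 32.8% in isolated regions, so it was not confined to dense runs. KD4 replicate 1 (weight 0.42), KD6 replicate 3 (0.41) and Scr replicate 3 (0.26) lay at its positive end, and KD6 replicate 1 (-0.41), Scr replicate 2 (-0.40) and KD4 replicate 3 (-0.27) at its negative end. Within each of the 5 groups the order of the weights was also the order of the shares of counts held by members.

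**Figure D2:**
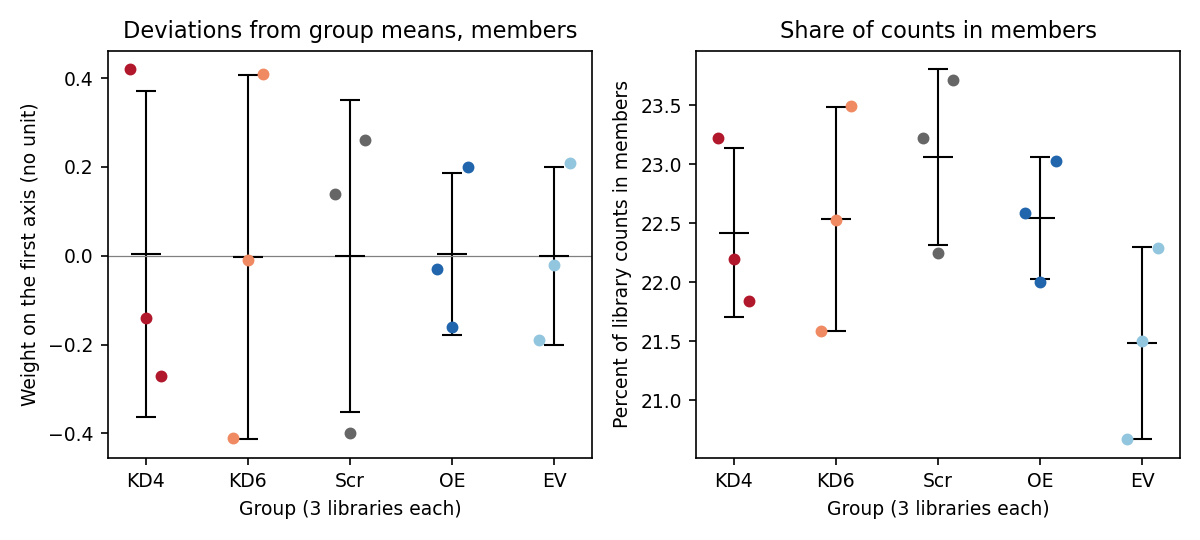
Each point is 1 library, in 5 groups of 3, with the mean and SD in black. The left panel gives the library's weight on the first principal component of the members' deviations from their group means (no unit), which runs between -0.41 and 0.42, and the right panel the percent of the library's counts held by members, between 20.7% and 23.7%.

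Some runs moved as a whole along this axis. The chromosome 5 and chromosome 8 runs given here were picked for their extreme scores on it, so they illustrate the axis and are no check of it. The 4 members of the run at chr5:123295638-123305522 summed to 11.3, 3.58 and 3.16 CPM in the KD4 libraries, to 4.68, 9.79 and 7.24 CPM in the KD6 libraries and to 9.59, 3.23 and 10.3 CPM in the Scr libraries. In OE they summed to 7.22, 6.87 and 9.98 CPM, and in EV to 4.51, 4.07 and 4.71 CPM. The 19 members of the run at chr15:98729700-98770028 summed to 486.8, 240.2 and 195.6 CPM in the KD4 libraries, which differ from each other by more than any group means of that run do. The run at chr8:85558941-85569361, whose 5 members all went against the weights, had 386.5, 578.5 and 603.1 CPM in the same 3 KD4 libraries. The part of this axis in the comparisons below was not tested.

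Knockdown against scramble gave few differences in dense runs. With edgeR's quasi-likelihood test and Benjamini-Hochberg adjustment over all 44289 regions tested, 3 of the 9420 members tested passed an adjusted p of 0.05, or 0.0318%, all of them higher in KD, against 0.271% of all regions tested (0.255% higher and 0.0158% lower). The unadjusted p was under 0.05 for 308 members that were higher and 371 that were lower in KD. That is 7.21% of members, against 8.25% of all regions tested (2332 higher and 1321 lower). DESeq2 called 20 members higher and 4 lower, of 277 regions it called in all. The median log2 fold change of members was -0.05, beside -0.005 over all regions tested, and 0.03 for the overlapping regions scaled and tested in the overexpression table. Isolated regions passed in 0.26% and sparse regions in 0.165% of cases. Of the 120 regions called, 88 lay outside all 3 classes, all of them higher, or 0.457% of such regions. Those include the regions absent from the overexpression table, so the contrast with all regions mixes crowding with the rest of the rule. The count among members fell to 1 without Scr replicate 1 or Scr replicate 2 and to 0 without Scr replicate 3. It was 6 without KD6 replicate 3. In this order the fits called 15, 21, 8 and 170 of all regions.

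Of these 3 members, 2 are neighbours on chromosome 19 and make up a run by themselves. At chr19:16362903-16363690 the KD4 libraries had 18.3, 18.7 and 15.8 CPM and the KD6 libraries 18.4, 20.1 and 18.4 CPM, against 11.2, 10.2 and 10.5 CPM in Scr. The 6 knockdown libraries all lay above the 3 Scr libraries (log2 fold change 0.78 ± 0.12 (SE), edgeR adjusted p = 0.0123). Its neighbour at chr19:16363942-16364810 had 21.8, 22.8 and 21.1 CPM in KD4 and 23.3, 21.8 and 22.2 CPM in KD6, against 15.9, 13.2 and 10.7 CPM in Scr (0.74 ± 0.13, edgeR adjusted p = 0.0238). At chr1:191339932-191340161 the KD4 libraries had 18.9, 15.7 and 16.1 CPM and the KD6 libraries 15.97, 18.9 and 14.5 CPM, against 6.37, 9.85 and 9.29 CPM in Scr (0.97 ± 0.16, edgeR adjusted p = 0.0143). In all 3 the groups do not overlap, which picking members by this test makes likely. The first member did not pass without any 1 of the Scr libraries (adjusted p between 0.057 and 0.0949), nor the chromosome 1 member without Scr replicate 1 (0.109) or Scr replicate 3 (0.0846). The second chromosome 19 member did not pass without Scr replicate 2 (0.109), Scr replicate 3 (0.178), KD4 replicate 2 (0.0739), KD6 replicate 1 (0.0534) or KD6 replicate 2 (0.0708).

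At these 3 members Scr was the group that stood apart from the other 4. The first chromosome 19 member averaged 17.6 ± 1.6 CPM in KD4, 18.95 ± 0.98 in KD6 and 10.6 ± 0.51 in Scr, beside 18.6 ± 2.1 in OE and 18.5 ± 2.8 in EV (SD, n = 3 each). The second averaged 13.3 ± 2.6 CPM in Scr, beside 22.7 ± 0.51 in OE and 25.5 ± 3.2 in EV. The chromosome 1 member averaged 8.50 ± 1.9 CPM in Scr, beside 15.6 ± 1.2 in OE and 13.9 ± 1.6 in EV. All 3 were called lower in Scr than in EV as well (log2 fold changes -0.79, -0.93 and -0.69, edgeR adjusted p = 0.00974, 0.00395 and 0.0364). The comparisons share the Scr libraries, so the second set of calls is no independent check of the first.

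**Figure D3:**
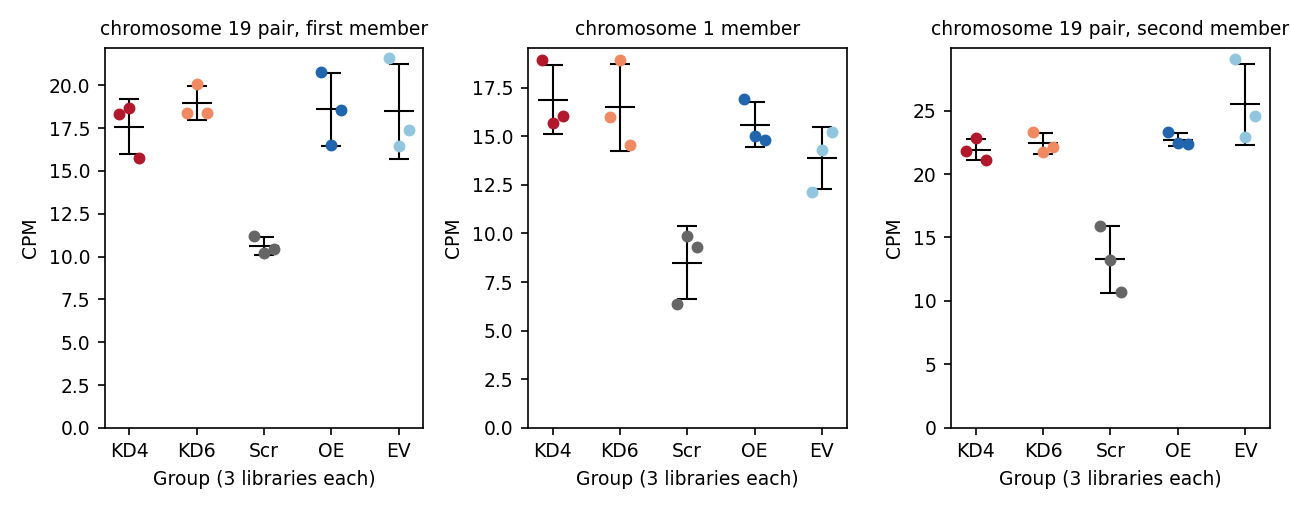
CPM (y axis, from 0) of the 3 members called in KD against Scr, by group (x axis). Points are libraries, and bars give the mean and SD of 3 libraries. In each panel the 3 Scr points, at most 15.9 CPM in any panel, lie below every point of KD4, KD6, OE and EV in that panel.

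Summing the members of each run into 1 feature gave the knockdown comparison more counts per locus. Of the 2389 runs, 4 passed the same test over 37258 features, all higher in KD, against 0.362% of all features (0.341% higher and 0.0215% lower). The unadjusted p was under 0.05 for 103 runs that were higher and 107 that were lower. The matching share of all features is not given here. DESeq2 called 15 runs higher and 4 lower, of 286 features it called in all. Besides the runs of the members above, these were the run at chr11:94242629-94256048, with 4 members none of which passed alone, and a single member at chr8:36332752-36333450. The chromosome 11 run summed to 16.8, 17.4 and 13.5 CPM in KD4 and to 25.5, 25.5 and 32.5 CPM in KD6, against 11.6, 11 and 14.3 CPM in Scr. All KD6 libraries exceeded every Scr library, while KD4 replicate 3 lay below Scr replicate 3 (log2 fold change 0.76 ± 0.14 (SE), edgeR adjusted p = 0.0262). Its 4 members stood at 1.03 to 1.37 in KD6 against Scr, where 3 passed, and at 0.30 to 0.63 in KD4 against Scr, where none did. The chromosome 8 member had 10.3, 11.1 and 13.5 CPM in KD4 and 11.3, 9.54 and 10.8 CPM in KD6, against 6.99, 6.67 and 7.21 CPM in Scr (0.66 ± 0.14, edgeR adjusted p = 0.0462). There OE averaged 9.41 ± 1.6 and EV 9.72 ± 0.76 CPM (SD, n = 3 each). In the chromosome 11 run OE averaged 20.8 ± 2.4 and EV 19.45 ± 3.2 CPM. At both loci Scr had the lowest group mean, and every Scr library lay below every OE and EV library. In Scr against EV, 1 member of the chromosome 11 run passed and the chromosome 8 member did not. The count of runs was 0 without Scr replicate 3 and 1 without Scr replicate 1, Scr replicate 2 or KD6 replicate 2. It was 2 without KD4 replicate 2 and 7 without KD4 replicate 1. Without KD6 replicate 3 it was 8, 2 of them lower in KD. In this order the fits called 10, 29, 35, 47, 70, 144 and 197 of all features.

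Taken alone, KD4 had 25 members past the same threshold against Scr, 11 higher and 14 lower in 20 runs, or 0.265% of those tested against 0.576% of all regions (0.431% higher and 0.145% lower). KD6 had 5, all higher in 3 runs, or 0.0531% against 0.149% of all regions (0.142% higher and 0.00677% lower). The unadjusted p was under 0.05 for 325 members with more and 475 with less signal in KD4, and for 251 with more and 215 with less in KD6. That is 8.49% of members in KD4, against 9.74% of all regions, and 4.95% in KD6, against 5.87%. Over all regions the split was 2695 with more and 1618 with less in KD4, and 1770 and 830 in KD6. All 4 members called in the run at chr6:143133495-143153832 were lower in KD4 than in Scr, as were both called at chr1:170021727-170026537, where all 5 members lay between -0.72 and -0.43 on the log2 scale.

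The knockdown lines also differed from each other, and here the calls came in blocks. In KD6 against KD4, 20 of the 9420 members tested passed, or 0.212%, against 0.224% of all regions tested, and all 20 were higher in KD6. The calls over all regions were 67 higher (0.151%) and 32 lower (0.0723%). The unadjusted p was under 0.05 for 344 members with more and 225 with less signal in KD6. That is 6.04% of members, against 6.37% of all regions (1387 with more and 1433 with less). DESeq2 called 44 members higher and 7 lower, of 251 regions it called in all. The 20 members lay in 10 runs, 4 of which had 2 or more and together held 14. The count was 4 without KD4 replicate 2 or KD6 replicate 2 and 7 without KD4 replicate 3. It was 10 without KD6 replicate 3 and 11 without Scr replicate 1. In this order the fits called 24, 17, 60, 56 and 68 of all regions.

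The clearest block was the run at chr11:86703501-86707141, in which all 5 members passed with log2 fold changes between 0.98 and 1.08. Its members summed to 251.4, 291.6 and 342.1 CPM in the KD6 libraries, against 161.6, 126.1 and 146.0 CPM in the KD4 libraries. Scr lay between them with 207.4, 162.4 and 223.8 CPM, so the mean of both lines was close to Scr (log2 fold change of the run 0.05 ± 0.13 (SE), edgeR adjusted p = 0.941). OE averaged 241.8 ± 18.96 CPM and EV 234.1 ± 13.4 CPM (SD, n = 3 each). The member with the smallest p, chr11:86706412-86707141, had 30.6, 30.6 and 28.0 CPM in KD6, against 14.5, 13.8 and 15.7 CPM in KD4 (1.02 ± 0.13 (SE), edgeR adjusted p = 0.00257). The next, chr11:86705505-86706093, had 42.7, 40.2 and 43.7 CPM in KD6, against 19.5, 18.3 and 23.2 CPM in KD4 (1.05 ± 0.13, edgeR adjusted p = 0.00257).

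On chromosome 6 the difference covered one end of a run. In the run at chr6:143133495-143153832 the first 4 members, up to 6.16 kb from the first start, lay between -0.27 and 0.05 on the log2 scale in KD6 against KD4. After a gap of 9.60 kb the other 6 lay between 0.75 and 1.08, and 4 of them passed. The first 4 summed to 20.5 ± 4.5 CPM in KD6 and 22.9 ± 1.8 CPM in KD4, the last 6 to 140.0 ± 6.0 CPM in KD6 and 78.3 ± 9.6 CPM in KD4 (SD, n = 3 each). For those last 6 members KD4 was the low group, since Scr summed to 131.7 ± 5.2, OE to 161.0 ± 4.2 and EV to 160.4 ± 11.3 CPM. The last member, chr6:143153575-143153832, had 19.1, 18.1 and 20.4 CPM in KD6, against 8.05, 9.69 and 9.48 CPM in KD4 (1.08 ± 0.15 (SE), edgeR adjusted p = 0.00497). The member before it, chr6:143152948-143153130, had 9.35, 12.5 and 11.6 CPM in KD6, against 5.35, 5.42 and 5.55 CPM in KD4 (1.03 ± 0.16, edgeR adjusted p = 0.00878), and did not pass without KD4 replicate 2 (adjusted p = 0.0668) or KD6 replicate 2 (0.0941). Where the run was divided was chosen after its values were seen.

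The run at chr2:119430529-119440705 had a possible edge at its far end, which rests on 1 member and was likewise placed after the values were seen. Its first 7 members lay between 0.48 and 0.98 in KD6 against KD4, with 3 past the threshold, and the eighth, 3.21 kb further on, at -0.04. The first 7 summed to 145.2, 145.4 and 150.5 CPM in KD6, against 93.4, 92.3 and 87.4 CPM in KD4, and Scr lay between them with 113.7, 123.0 and 117.4 CPM. The eighth member had 8.67 ± 0.67 CPM in KD6 and 8.92 ± 1.0 CPM in KD4 (SD, n = 3 each). Within the first 7, chr2:119433590-119434072 had 21.7, 19.5 and 23.3 CPM in KD6, against 9.91, 11.6 and 11.2 CPM in KD4 (0.97 ± 0.14 (SE), edgeR adjusted p = 0.00672). In a run at chr6:128990005-129005849 all 7 members were above 0 in KD6 against KD4, between 0.30 and 0.93, and 2 passed.

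**Figure D4:**
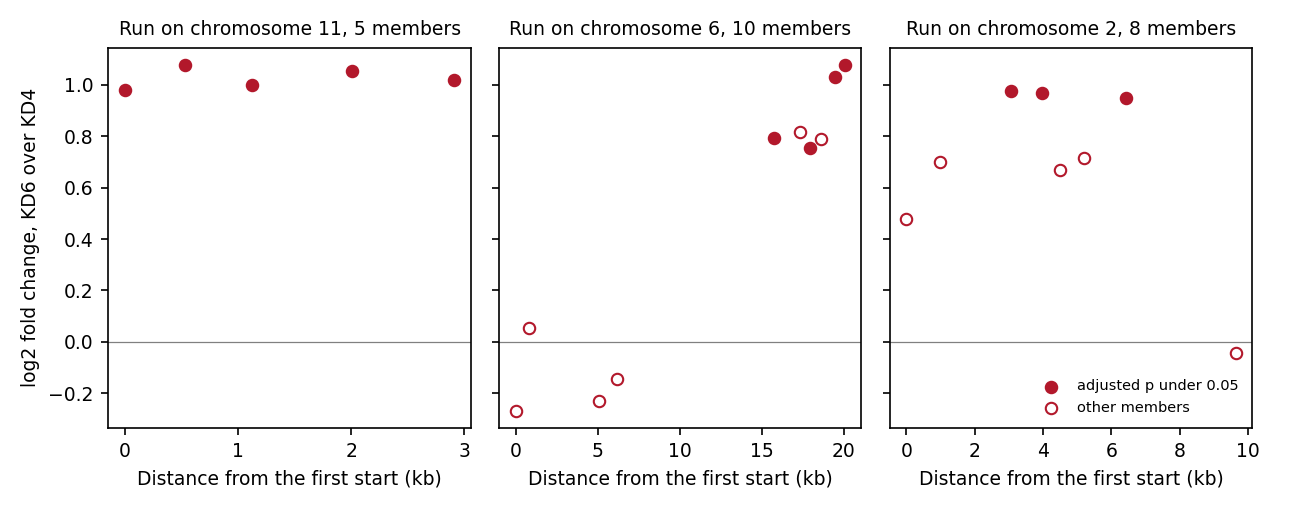
Log2 fold change of KD6 over KD4 (y axis) of each member of 3 runs, by the distance of its start from the first start of the run in kb (x axis). Filled points passed an adjusted p of 0.05 in edgeR's test. All 5 members of the chromosome 11 run lie between 0.98 and 1.08, the chromosome 6 run steps up after a gap of 9.60 kb, and the last member of the chromosome 2 run lies at -0.04.

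Overexpression against its vector gave no call in dense runs. None of the 9421 members tested passed an adjusted p of 0.05 in edgeR's quasi-likelihood test, as did 0% of the 44011 regions tested. The unadjusted p was under 0.05 for 621 members that were higher and 135 that were lower in OE, or 8.0%. Over all regions tested it was 6.6%, with 1469 higher and 1434 lower. DESeq2 called 1 member, lower, of 4 regions it called in all. Over all members the median log2 fold change was 0.06, with 63.9% above 0, beside 0.02 in sparse and 0.003 in isolated regions. The median was 0.13 without TMM and 0.06 with RLE factors, and -0.004 for the overlapping regions of the overexpression table, where regions, counts and scaling all differ. The smallest p belonged to chr4:119991838-119992051, with 5.26, 3.70 and 5.64 CPM in OE, against 2.35, 2.32 and 2.07 CPM in EV. Its groups do not overlap, but the difference did not pass (log2 fold change 1.11 ± 0.21 (SE), edgeR adjusted p = 0.536), and among runs of 4 or more members its run was in the 3 that followed the library axis most. Next came chr15:98748109-98748612, of the chromosome 15 run above, with 33.3, 33.2 and 42.6 CPM in OE, against 24.9, 22.3 and 25.4 CPM in EV (0.59 ± 0.12, edgeR adjusted p = 0.682). The third, chr6:51441102-51441291, had 333.2, 294.3 and 286.5 CPM in OE, against 674.8, 470.7 and 407.8 CPM in EV (-0.76 ± 0.16, edgeR adjusted p = 0.682), and is the member DESeq2 called (adjusted p = 0.0272).

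More members passed between the control lines than in any other comparison here. In Scr against EV, 386 of the 9417 members tested passed, or 4.10%, against 4.38% of all 43819 regions tested. Of them 269 were higher and 117 lower in Scr, a share higher of 69.7%, while the calls over all regions were 958 higher (2.19%) and 963 lower (2.2%). The split was 307 higher and 37 lower without TMM and 256 and 146 with RLE factors. It turned to 91 higher and 258 lower for the overlapping regions of the overexpression table, where regions, counts and scaling all differ. Over all regions these fits called 1511, 2038 and 2013. The median of members was 0.07 in the knockdown table and -0.06 in the overexpression table, so only the size of single changes and not the lean of the whole is described here. Scr and EV carry different constructs, and construct, antibiotic selection, line and handling cannot be told apart. The count was 64 without Scr replicate 1, 52 without Scr replicate 3 and 592 without Scr replicate 2. It was 111 without EV replicate 1 and 45 without EV replicate 2. In this order the fits called 366, 454, 2661, 660 and 411 of all regions.

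The 386 members lay in 293 runs, and no run had calls in both directions. In 64 runs 2 or more members were called, 157 members in all, and in 18 runs 3 or more were. In the run at chr9:21636826-21660437 all 6 members passed, between 0.56 and 1.55 on the log2 scale. Together they had 224.2, 231.6 and 220.4 CPM in Scr, against 153.9, 143.5 and 128.2 CPM in EV. KD4 with 271.5 ± 28.9 and KD6 with 291.8 ± 52.9 CPM were on the side of Scr, and OE with 147.2 ± 3.6 CPM on that of EV (SD, n = 3 each). Its first member, chr9:21636826-21637234, had 6.68, 7.92 and 8.06 CPM in Scr, against 3.14, 2.32 and 2.35 CPM in EV (1.55 ± 0.21 (SE), edgeR adjusted p = 0.000359). Another, chr9:21649666-21649995, had 7.92, 6.88 and 9.83 CPM in Scr, against 3.24, 3.396 and 3.72 CPM in EV (1.26 ± 0.20, edgeR adjusted p = 0.00178).

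The run at chr1:78642124-78646241 had the same arrangement of groups. All 5 of its members passed, between 0.62 and 0.99, and they summed to 68.8, 70.5 and 64.9 CPM in Scr, against 42.0, 38.2 and 39.0 CPM in EV. KD4 averaged 70.4 ± 13.6, KD6 73.2 ± 7.1 and OE 42.8 ± 5.0 CPM (SD, n = 3 each). In the run at chr19:5846198-5852582, whose 8 members lay between 1162 and 2453 CPM per kb, 5 members passed and all 8 were above 0, between 0.48 and 0.93. Its members summed to 7602, 6127 and 7446 CPM in Scr, against 4307, 4019 and 5032 CPM in EV, and to 6553 ± 352.5 in KD4, 5740 ± 898.6 in KD6 and 4617 ± 869.4 CPM in OE (SD, n = 3 each). Among single members, chr19:44292333-44292592 had 129.9, 137.3 and 155.2 CPM in Scr, against 56.7, 70.9 and 80.9 CPM in EV (1.03 ± 0.15 (SE), edgeR adjusted p = 0.00115). The other higher members with the smallest p were chr11:50215543-50215835 (0.95) and chr5:105873442-105873626 (1.06), both with an edgeR adjusted p of 0.00439.

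Among the members lower in Scr, chr2:165915891-165916697 had the smallest p of all, with 8.54, 9.12 and 7.32 CPM in Scr, against 23.3, 20.7 and 22.03 CPM in EV (-1.39 ± 0.15 (SE), edgeR adjusted p = 6.53e-05). KD4 varied there between 8.45 and 15.9 CPM, KD6 had 8.24 ± 1.2 CPM and OE 19.5 ± 0.27 CPM (SD, n = 3 each). At chr2:32269161-32269493 Scr had 13.9, 14.4 and 9.88 CPM, against 33.3, 34.9 and 28.5 CPM in EV (-1.33 ± 0.16, edgeR adjusted p = 0.000108). The 3 others were the second chromosome 19 member called in KD, chr4:63274428-63274971 (-1.09, adjusted p = 0.00612) and chr7:110414994-110415545 (-0.96, adjusted p = 0.00636). The 10 members given here stayed past the threshold in each fit that left out 1 library and in each of the other scalings, filters and tools tried on them.

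Neighbouring members changed alike, whether or not they passed. Over about 7030 pairs of neighbouring members in a run, Pearson's r of their log2 fold changes was 0.51 in KD against Scr, 0.53 in KD6 against KD4, 0.28 in OE against EV and 0.48 in Scr against EV. The likeness was lowest for the farthest pairs, a median of 5955 bp apart, with r of 0.315 in KD against Scr, 0.337 in KD6 against KD4, 0.17 in OE against EV and 0.284 in Scr against EV. For pairs under 1000 bp apart it was 0.575 in KD against Scr, 0.619 in KD6 against KD4, 0.298 in OE against EV and 0.51 in Scr against EV. For the next pairs, a median of 1330 bp apart, it was lower than that in KD against Scr (0.534) and KD6 against KD4 (0.542) but higher in OE against EV (0.324) and Scr against EV (0.548). Between the last member of a run and the first of the next it was 0.02 to 0.05 in the 4 comparisons. In runs of 2 or more members, 58.0% of the variance of the fold changes lay between runs in KD against Scr and 57.5% in KD6 against KD4. It was 40.1% in OE against EV and 54.6% in Scr against EV. The part that so many small runs hold even without likeness was not taken away. These values are across regions of the same libraries, which are not independent, and the part of the library axis in them was not tested.

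**Figure D5:**
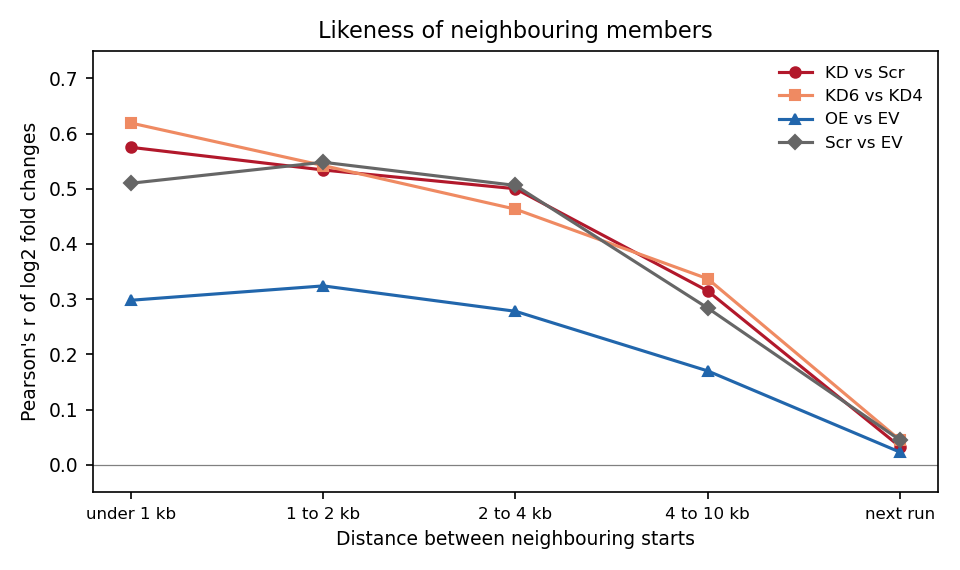
Likeness of neighbouring members, as Pearson's r of their log2 fold changes (y axis), by the distance between their starts (x axis), for 4 comparisons; the last position pairs the ends of neighbouring runs. The 3 upper lines start between 0.51 and 0.62, OE against EV starts at 0.30, and all end between 0.02 and 0.05.

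Across all 5 groups most members moved little. The highest group mean was a median of 1.29 times the lowest, and it was over 2 times the lowest in 158 members, or 1.68%, against 2.44% of sparse and 3.69% of isolated regions. The coefficient of variation between 3 libraries had a median of 12.5% in KD4, 13.8% in KD6 and Scr, 9.8% in OE and 12.2% in EV.

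The 10 runs with the most members had 16 to 22 members over 24636 to 55821 bp, and none of them was called in KD against Scr. The longest chain, at chr15:85545246-85590605, had 22 members between 8.50 and 49.4 CPM per kb, and 20 of them were below 0 in KD against Scr (log2 fold change of the run -0.14 ± 0.11 (SE), edgeR adjusted p = 0.755). Its members summed to 352.0, 296.3 and 287.9 CPM in KD4, 227.8, 267.1 and 273.2 CPM in KD6 and 325.0, 275.4 and 332.1 CPM in Scr. KD4 overlapped Scr, while the 3 KD6 libraries lay below every library of both. KD6 averaged 256.0 ± 24.6 CPM, beside 262.5 ± 36.3 in OE and 243.7 ± 27.65 in EV (SD, n = 3 each). At chr16:91856746-91893939 all 20 members were below 0 in KD against Scr, between -0.30 and -0.03, and the run again did not pass (-0.13 ± 0.10, edgeR adjusted p = 0.76). Among all members tested, 40.1% were above 0 in this comparison. Of these 10 runs, the one at chr15:76055229-76079864 had the strongest signal, with 18 members between 128.2 and 561.5 CPM per kb. It summed to 3318, 1652 and 1587 CPM in KD4, 2202, 2620 and 2465 CPM in KD6, 2970, 1827 and 3022 CPM in Scr, 2592, 2692 and 2717 CPM in OE and 2245, 2390 and 2236 CPM in EV. Within KD4 and within Scr the libraries there differed by more than the group means did.

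Of the members with the largest levels, the highest, chr17:45879869-45880026, averaged 7949 CPM per kb over the 15 libraries, and none of its fold changes passed. Next were neighbours at chr1:24654836-24655157 with 5845 and chr1:24654122-24654529 with 5115 CPM per kb, then chr9:75296008-75296347 with 3822 and chr13:23765644-23765892 with 3737. The chromosome 9 member had 2502, 718.8 and 465.2 CPM in KD4, 773.8, 1152 and 1912 CPM in KD6, 1746, 820.7 and 3228 CPM in Scr, 1147, 1065 and 1679 CPM in OE and 439.2, 800.3 and 1044 CPM in EV. It passed in Scr against EV (log2 fold change 1.35 ± 0.34 (SE), edgeR adjusted p = 0.0312) although Scr replicate 2 lay below EV replicate 3, and its libraries were ordered within every group as on the library axis.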

How the data were processed

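The members, lists and tests were chosen with earlier results of these data known. The authors' methods name Bowtie2 and MACS in Partek Flow, while STAR 2.7.8a with mm39 appears in the notes on processing that the submitters gave. The merging of peaks and the assignment of reads are not given in the sources used here. What the authors deposited per region is an expected count with no normalization. Of these values 95.1% were whole in the knockdown table and 95.0% in the overexpression table, and 15 further columns of each table match no sample and were not used. They were rounded to whole numbers, where the design had assumed whole counts.

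Tests used edgeR 4.0.16 under R 4.3.3 (quasi-likelihood fit, TMM, the tool's filter on low counts, Benjamini-Hochberg adjustment over all regions tested, threshold 0.05). KD4, KD6 and Scr were fitted as 3 groups, and OE with EV and Scr with EV alone, in the knockdown table throughout. Levels are log2 or linear CPM computed from these counts. The procedure was also run on simulated counts, drawn for each region by itself. These lack the library axis and the likeness of neighbours, so they do not show how it performs with them. Replicate numbers come from the titles. The labels' statement that replicates came from different passages stands in a protocol for RNA, and a p-value then covers no more than the spread of the 3 libraries, possibly a technical one. Replicates differed by at least 3.57 times the variance that sampling gives, so none was counted as a copy.

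Regions named are, of called members whose mean is 5 CPM or more, the 5 higher and 5 lower with the smallest p per comparison (the 3 with the smallest p where fewer than 3 passed), the 5 members of the highest level and the 10 runs with most members. Runs described one by one beyond these were chosen after their calls or their place on the library axis were seen. Gene lists and cell type markers were not used, since the reference at hand was of other builds. Alternatives were no TMM, RLE factors, DESeq2 1.42.0, no filter or at least 50 counts in 3 libraries, a block for the replicate number, leaving out each library, the overexpression table, and other definitions of membership (6 or more other starts, a window of 5000 bp, reciprocal overlap of 50%).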

Additional observations from a re-analysis of the deposited data

Results flagged for a closer look

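In 20 members, all higher in KD6, the effects of the KD6 and KD4 lines against the same Scr libraries differed by a test of the difference itself, edgeR's contrast of KD6 with KD4. That is 0.212% of the members tested, against 0.224% of all regions, and leaving out each library in turn gave 4 to 15. The 5 with the smallest p among those of at least 5 CPM had log2 fold changes of 1.02 at chr11:86706412-86707141, 1.05 at chr11:86705505-86706093, 1.08 at chr6:143153575-143153832, 0.97 at chr2:119433590-119434072 and 1.03 at chr6:143152948-143153130. In each of them the 3 KD6 libraries lay above the 3 KD4 libraries. Picking by the smallest p makes such a separation likely, so it adds no support. No group has enough libraries for a check of single outlying samples.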

How the results depend on the processing

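With 3 libraries a group, standard errors of log2 fold changes in members had medians of 0.16 in KD against Scr and 0.15 in OE against EV, and replicates differed by at least 3.57 times the variance that counting alone gives. With DESeq2 in place of edgeR the members called were 24 in KD against Scr, 51 in KD6 against KD4 and 1 in OE against EV, and the runs called in KD against Scr were 19. In the overexpression table the members called were 1 in KD against Scr and 13 in KD6 against KD4, of 62 and 72 regions called in all. With reciprocal overlap of 50% 1 member was called in KD against Scr. With 6 or more other starts, 5 were called in KD6 against KD4 and 155 in Scr against EV, and with a window of 5000 bp 13 and 222. These definitions leave fewer members, and the calls over all regions stayed those of the main fit. Members held 22.4% of counts on average over the libraries, and 24.0% without chrM and the 20 largest regions, 9.46% with 6 or more other starts and 12.9% with a window of 5000 bp. Leaving out each library in turn gave 0 to 6 members in KD against Scr and 4 to 15 in KD6 against KD4. It gave 0 in OE against EV and 45 to 592 in Scr against EV. Over all regions these fits called 8 to 170, 17 to 101, 0 to 1 and 366 to 2852 in the same order. The runs called in KD against Scr were 0 to 8. Share differences were -0.989 to -0.26 percentage points for KD minus Scr and 0.643 to 1.45 for OE minus EV. With the replicate number as a block, 13 members were called in KD6 against KD4, 3 in KD against Scr, 0 in OE against EV and 459 in Scr against EV, and 3 runs in KD against Scr. Over all regions the block gave 86, 99, 2 and 2126 calls in the same order, and 122 over all features with runs summed. The numbers did not pair the libraries, since deviations of libraries with the same number correlated between -0.30 and 0.35. Where a count moved, the cause was not tested. Of the named members' 276 refits, 12 lost a call, 1 gained one and none turned its direction; the 12 were fits without 1 library.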
